A study of Mus musculus with 1 sample.

Results

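A set of 10 genes tied to the disease-associated state of microglia was examined in primary glia of the mouse ventral midbrain (VM). They encode secreted, surface and lipid-handling proteins: the lysozymes Lyz1 and Lyz2, the cystatins Cst3 and Cst7, osteopontin (Spp1), Gpnmb, lipoprotein lipase (Lpl), the fatty acid binding protein Fabp5, and the surface proteins Cd9 and Cd52. The members were the rows whose symbol equals 1 of these names, which gave 10 of the 23282 rows of the table. The members were chosen by name while their normalised read counts in this library were known, so the levels below are a description and none was tested. The study asked how inhibition of serum- and glucocorticoid-regulated kinase 1 (SGK1) changes glia, and the data analysed here were its control library, with n = 1. The cells were mixed glia from VM of outbred ICR (CD-1) mice, which the labels place at postnatal day 5, and the control cultures of the study received the solvent DMSO in place of the inhibitor. Glia treated with the inhibitor were not analysed here, and with 1 library no level has an error between cultures. How many pups or flasks went into the library was not given in the sources used here.

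Microglia are the resident macrophages of the brain. In ageing, around amyloid plaques and near dying neurons, part of them take on a state called disease-associated microglia (DAM), in which genes of the resting state fall and genes for phagocytosis, lysosomes and lipid metabolism rise, in part through the receptor TREM2. The genes examined here are commonly listed with that programme, although Cst3 is also abundant in resting microglia and in astrocytes, and Cd9 and Fabp5 are used by many cell types.

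Each gene had a normalised read count, as the authors call the deposited value, and these summed to 27569507. A gene at 10 or more was called detected, and the median of detected genes was 469. Because a long gene collects more reads than a short one, levels of different genes were compared per kilobase, with the union of annotated exons as the length. The median of detected genes was 103 per kilobase on that scale. Shares of the sum, sums over a list and counts given as by value rest on values that also depend on gene length. The number of sequenced reads is unknown, so no counting interval or detection floor can be given.

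All 10 genes were detected, against 67.2% of all rows. Their levels ran from 284 per kilobase for Cst7 to 378587 for Lyz2, with a median of 10787. Together they held 3.92% of the sum, and Lyz2, Spp1 and Gpnmb made up 84.4% of what the 10 held. By value, 8 of the 10 lay in the highest 10% of detected genes (values of 3269.3 or more), where 6.72% of all rows lie. By value per kilobase 9 of 10 did, against 6.75% of the rows with a length. Of the 10 genes, 5 were among the 100 highest genes of the library per kilobase. Cd52 and Cst7 were the members outside the highest 10% by value, and Cst7 was outside it on both scales.

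**Figure D1:**
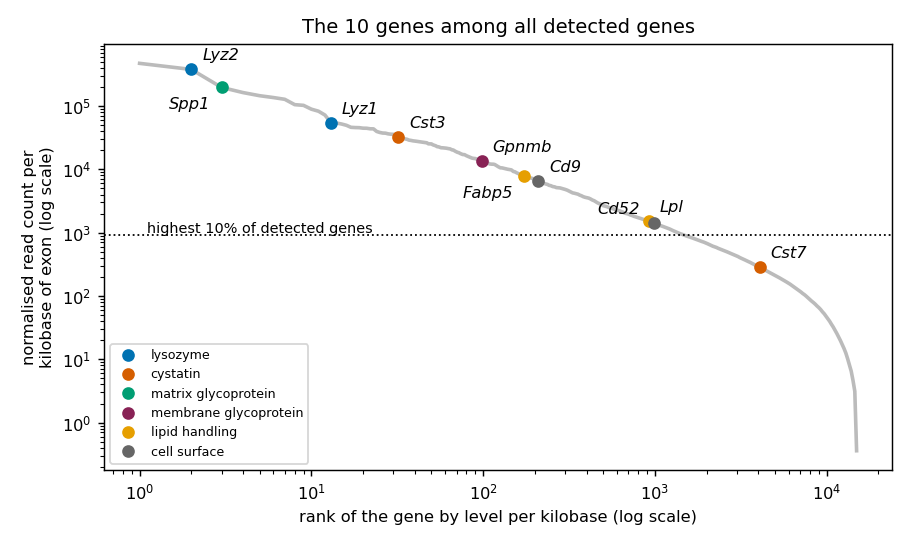
Normalised read count per kilobase of exon for detected genes (grey line, log scale) against rank on that scale (log scale), with the 10 genes as points coloured by role. Lyz2 and Spp1 stand at ranks 2 and 3, the members down to Cd52 lie above the dotted line that marks the highest 10% of detected genes, and Cst7 lies below it.

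Lysozyme cuts the peptidoglycan of bacterial cell walls, and Lyz2 is a widely used marker gene of myeloid cells. Lyz2 (ENSMUSG00000069516.8, chromosome 10, 117277331 to 117282321, minus strand, GRCm38) had a value of 498220, which is 18071 per 1000000 of the sum. Lyz1 (ENSMUSG00000069515.6, 117287797 to 117292868), known for its expression in Paneth cells of the gut, had a value of 68795. The genes lie 5475 bases apart on the same strand, each with 4 exons and 1 annotated transcript. Per kilobase of exon, Lyz2 was at 378587 (rank 2) and Lyz1 at 54470 (rank 13), a ratio of 6.95. Of the values of the pair, Lyz1 held 12.1%.

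The first 300 coding bases of Lyz1 and Lyz2 are shown, because how far these genes can be told apart sets how their values can be read. Capitals mark the bases that differ between them. They come from the GENCODE M21 transcripts, and the whole coding sequences span chr10:117288586-117292838 for Lyz1 and chr10:117278124-117282242 for Lyz2, introns left out, both on the minus strand of GRCm38.
Lyz1: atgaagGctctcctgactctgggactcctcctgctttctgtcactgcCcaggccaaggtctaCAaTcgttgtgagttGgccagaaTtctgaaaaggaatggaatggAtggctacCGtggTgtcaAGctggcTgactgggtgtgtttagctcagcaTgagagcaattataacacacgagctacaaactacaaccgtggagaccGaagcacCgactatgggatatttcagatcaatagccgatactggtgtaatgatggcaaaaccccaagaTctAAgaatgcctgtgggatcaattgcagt
Lyz2: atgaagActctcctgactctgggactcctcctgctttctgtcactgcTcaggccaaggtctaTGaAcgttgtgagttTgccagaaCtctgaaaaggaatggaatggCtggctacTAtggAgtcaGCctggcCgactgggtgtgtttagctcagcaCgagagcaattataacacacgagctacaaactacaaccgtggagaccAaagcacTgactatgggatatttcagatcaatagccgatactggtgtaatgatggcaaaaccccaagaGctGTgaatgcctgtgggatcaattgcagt
The stretches shown hold 20 of the 22 differences. Over the whole coding sequence the pair was identical at 422 of 444 coding bases (95.0%), and the longest stretch without a difference was 118 bases. The 22 substitutions fell in 18 of 148 codons, of which 12 change the amino acid. Over the whole transcripts 92.0% of aligned positions were identical.

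The sequence before the genes differed more. The stretches below, from the RefSeq promoter table (GRCm38.p6), lie at chr10:117292918-117293118 for Lyz1 and chr10:117282322-117282522 for Lyz2. The Lyz2 stretch ends where its annotated transcript starts, and the Lyz1 stretch, which is the part aligned with it, stops short of the Lyz1 start at 117292868. They are given on the minus strand, with capitals where the aligned bases differ or face a gap.
Lyz1 upstream: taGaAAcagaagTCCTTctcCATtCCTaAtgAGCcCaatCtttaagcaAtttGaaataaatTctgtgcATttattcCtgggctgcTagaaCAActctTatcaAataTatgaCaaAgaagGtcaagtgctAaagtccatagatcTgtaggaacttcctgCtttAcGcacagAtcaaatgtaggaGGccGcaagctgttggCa
Lyz2 upstream: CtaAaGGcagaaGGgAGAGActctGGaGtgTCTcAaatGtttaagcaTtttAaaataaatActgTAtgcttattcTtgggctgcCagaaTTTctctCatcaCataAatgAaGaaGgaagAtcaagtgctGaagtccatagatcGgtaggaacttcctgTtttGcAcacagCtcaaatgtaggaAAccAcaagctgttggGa
Of 207 aligned positions 155 (74.9%) were identical, and the longest identical stretch was 14 bases. The library gives the level of both transcripts but no measurement on these stretches.

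Reads from sequence that the lysozymes share can be counted to either gene, to both or to neither. Of the 50-base windows of the Lyz1 transcript, 16.1% also occurred in Lyz2, and 15.4% of the Lyz2 windows occurred in Lyz1. At 100 bases the shares were 2.06% and 1.97%, and at 150 bases they were 0. The read length and the treatment of such reads were not given in the sources used here. None of 8 other lysozyme family genes was detected. Of these, 4 were listed at 0 and the highest value, that of Lyzl4, was 3.

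Cystatins block cysteine proteases of the lysosome. Cst3 (ENSMUSG00000027447.6, chromosome 2, 148871722 to 148875692, minus strand) encodes cystatin C, the main secreted form, and had a value of 40346. Cst7 (ENSMUSG00000068129.5, chromosome 2, 150570415 to 150578944, plus strand) encodes cystatin F, which acts inside immune cells and is among the genes that rise most in DAM. It had a value of 280. Per kilobase of exon Cst3 was at 31869 (rank 32) and Cst7 at 284, a ratio of 112. Cst7 was the lowest of the 10, above 72.7% of detected genes per kilobase and above 39.3% by value, so its place against the median of detected genes depends on the scale.

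Cst3 and Cst7 were the only genes above 0 among 9 cystatin genes listed for their region of chromosome 2, which spans 1829 kb. The other 7 (Cst8, Cst9, Cst10, Cst11, Cst12, Cst13 and Cstl1), most of them known from the male reproductive tract, were listed at 0. Elsewhere in the family, the intracellular inhibitor Cstb was at 8033 per kilobase and Cst6 at 8.07. Of the 13 family genes beside the members, 10 were listed at 0 and 2 were detected.

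The proteases that cystatins bind were high. Of 9 cathepsin and legumain genes, 7 were in the highest 10% by value and 6 per kilobase, with a median of 3582 per kilobase against 103 for detected genes. Per kilobase of exon Ctss was at 53953, Ctsb at 27204 and Lgmn at 17680, and the bone protease gene Ctsk was lowest at 1.98. Cst3, at 31869, lay between Ctss and Ctsb. With the longest coding sequence as the length, Ctsb (161858) was instead above Cst3 (96062) and Ctss (71621) below it, so the order of the inhibitor and these proteases depends on the length used.

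Osteopontin is a secreted phosphoprotein that binds integrins and CD44. Spp1 (ENSMUSG00000029304.14, chromosome 5, 104435118 to 104441050, plus strand) had a value of 324671 and was at 197009 per kilobase of exon, rank 3 on that scale. It belongs to the SIBLING genes (small integrin-binding ligand, N-linked glycoproteins), which lie side by side on chromosome 5 over 270 kb and are known from bone and teeth. The other 4 were low, with Dmp1 at 17.4 per kilobase and Ibsp at 16.4, both detected, and Dspp at 0.677 and below detection. Mepe, the SIBLING gene next to Spp1, was listed at 0. Spp1 was thus 11983 times Ibsp per kilobase of exon. Of the exon bases of Spp1, 18.8% overlap an unclassified GENCODE gene, Gm42793, on the same strand.

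Genes for osteopontin receptors were all detected. Of 9, 5 were in the highest 10% by value and 4 per kilobase, and their median was 358 per kilobase. Integrin β5 (Itgb5) was highest at 6168 per kilobase, followed by Itgb1 at 4222 and Itga5 at 1928. Itga8 was lowest at 40.4, and Itgb3, the partner of Itgav in the classical osteopontin receptor, was at 79.6 against 358 for Itgav. CD44 was at 954. Spp1 itself was 31.9 times Itgb5 per kilobase of exon.

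Gpnmb is a membrane glycoprotein of phagocytes and melanocytes whose outer part can be shed. Gpnmb (ENSMUSG00000029816.10, chromosome 6, 49036546 to 49070929, plus strand, 11 exons) had a value of 89356. Per kilobase it was at 13718 (rank 98), and at 24144 when its longest protein-coding transcript was used as the length. Its closest relative, the melanosome gene Pmel, was at 41.9 per kilobase of exon, a ratio of 328. The MiT transcription factors, lysosomal regulators that are known to drive Gpnmb, were at 274 per kilobase for Tfe3, 204 for Tfeb, 110 for Mitf and 17.2 for Tfec. None of these 5 genes was in the highest 10% on either scale. No 50-base window of the Gpnmb transcript occurred in another annotated gene.

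Lpl and Fabp5 handle fatty acids, the former by releasing them from lipoprotein triglycerides outside the cell and the latter by carrying them inside. Lpl (ENSMUSG00000015568.16, chromosome 8, 68880491 to 68907448, plus strand) had a value of 15800. Per kilobase it was at 1508 with the union of exons, 10478 bases long, and at 3840 with the longest protein-coding transcript of 4115 bases. Fabp5 (ENSMUSG00000027533.10, chromosome 3, 10012548 to 10016607, plus strand) had a value of 28024. Its union of 3567 bases includes a transcript with a retained intron, so the level was 7856 per kilobase with the union and 28393 with the protein-coding transcript of 987 bases.

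Within the lipase genes, Lpl stood beside lysosomal acid lipase (Lipa), which was at 1083 per kilobase of exon, a ratio of 1.39. Per kilobase Pnpla2, which starts the breakdown of stored triglyceride, was at 806 and Mgll at 129, and Pnlip of the pancreas was listed at 0. The partners of LPL spanned a wide range per kilobase. The clearance receptor Lrp1 was at 3039, the apolipoprotein Apoc1 at 1809 and the activator Apoc2 at 1582. Sel1l, which helps LPL leave the endoplasmic reticulum, was at 467, Sort1 at 386 and the maturation factor Lmf1 at 87.5. Angptl4, an inhibitor of LPL, was at 79.6, Gpihbp1, which holds LPL on capillary endothelium, was at 0.392, and Angptl8, Apoc3 and Apoa5 were listed at 0. Of the 13 partners, 9 were detected, 2 were in the highest 10% by value and 3 per kilobase. With the union of exons as the length, Lpl itself, at 1508 per kilobase, lay below Lrp1, Apoc1 and Apoc2. By value Lpl (15800) was below Lrp1 (53849) but above Apoc1 (1346) and Apoc2 (1286), so its place against the apolipoproteins depends on the scale.

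Fabp5 led the fatty acid binding proteins. Of the other 8, Fabp7, the form of radial glia and astrocytes, was at 2658 per kilobase, Fabp3 at 2040 and Fabp4 at 138, and 5 were listed at 0. Fabp5 exceeded Fabp7 by 2.96 times per kilobase of exon and by 11.7 times per kilobase of coding sequence, so the order of the pair was the same with either length and its size was not. Fabp5 lies in a group of FABP genes on chromosome 3 that spans 289 kb, in which Fabp9 and Fabp12 were listed at 0. Among 14 genes for uptake, activation and storage of fatty acids, the lipid droplet coat gene Plin2 was at 3493 per kilobase and was the gene of this list in the highest 10% on either scale. It was followed by Acsl5 at 650.5 and Slc27a1 at 425. The median of these 14 was 177 per kilobase, the scavenger receptor Cd36 was at 175, and the nuclear receptor genes were at 84.6 for Ppard, 29.1 for Pparg and 0.521 for Ppara.

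**Figure D2:**
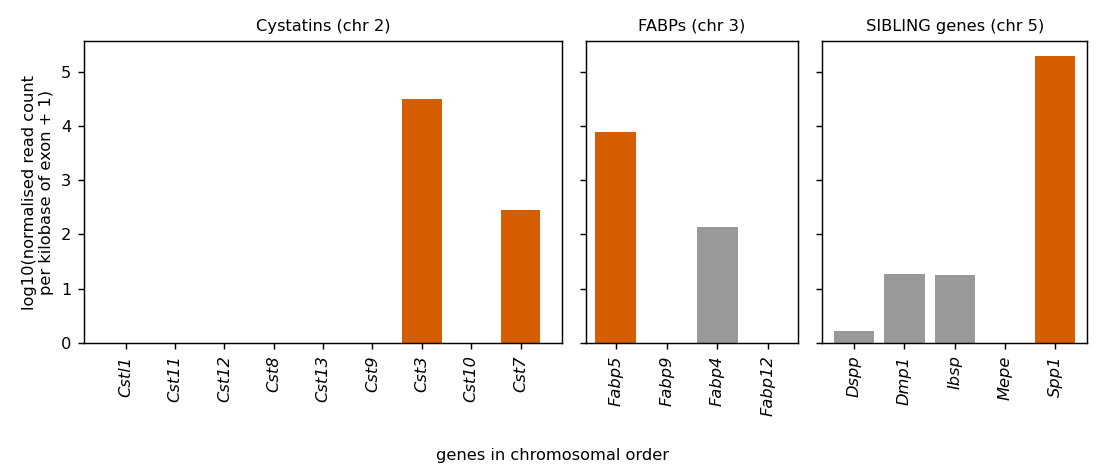
Level of the cystatin, FABP and SIBLING genes in chromosomal order, as log10 of the normalised read count per kilobase of exon plus 1, with the examined genes in orange and their relatives in grey. Cst3, Cst7, Fabp5 and Spp1 stand beside relatives that were mostly listed at 0, with Fabp4, Dmp1, Ibsp and Dspp as the relatives above 0.

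Cd9 and Cd52 are surface proteins. Cd9 (ENSMUSG00000030342.8, chromosome 6, 125460266 to 125494791, minus strand) is a tetraspanin found on many cells and on exosomes, and had a value of 13383. It was at 6547 per kilobase of exon, beside Cd63 at 4878 and Cd81 at 4789. With the coding sequence as the length Cd63 (25154) was above Cd9 (19739), so these genes have no stable order. Of 10 other tetraspanin and partner genes, all were detected, 4 were in the highest 10% by value and 5 per kilobase. The leukocyte tetraspanin Cd53 was at 2599 per kilobase, and the lowest, Tspan7, at 111.

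Cd52 (ENSMUSG00000000682.7, chromosome 4, 134082448 to 134095082, minus strand, 2 exons) encodes a short glycopeptide on a lipid anchor, best known from lymphocytes and macrophages. Its value was 1670. Its longest coding sequence is 222 bases, and per kilobase of exon it was at 1407, inside the highest 10% on that scale. Of 7 genes for other lipid-anchored surface proteins, Prnp was at 3826 per kilobase, Cd14 at 2994 and Cd24a at 2261, while Cd48 was at 463 and Thy1 was lowest at 325. Exons of Cd52 overlap 172 bases of Crybg2 on the opposite strand, which had a value of 7.

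Ordered by level per kilobase of exon, the 10 genes ran Lyz2, Spp1, Lyz1, Cst3, Gpnmb, Fabp5, Cd9, Lpl, Cd52 and Cst7. The highest exceeded the lowest by 1333 times. Neighbours in this order differed by 1.07 times for Lpl and Cd52 and by 4.95 times for Cd52 and Cst7, and without replicates it cannot be said which of these steps exceed the spread between cultures. With the longest protein-coding transcript as the length, Fabp5 moved above Gpnmb and the other 8 kept their places. With the coding sequence the order was that same one, and the highest exceeded the lowest by 1731 times. With the longest transcript of any kind Fabp5 instead moved below Cd9, at 8655 against 10898 per kilobase, so the place of Fabp5 among Gpnmb and Cd9 depends on the length used.

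**Figure D3:**
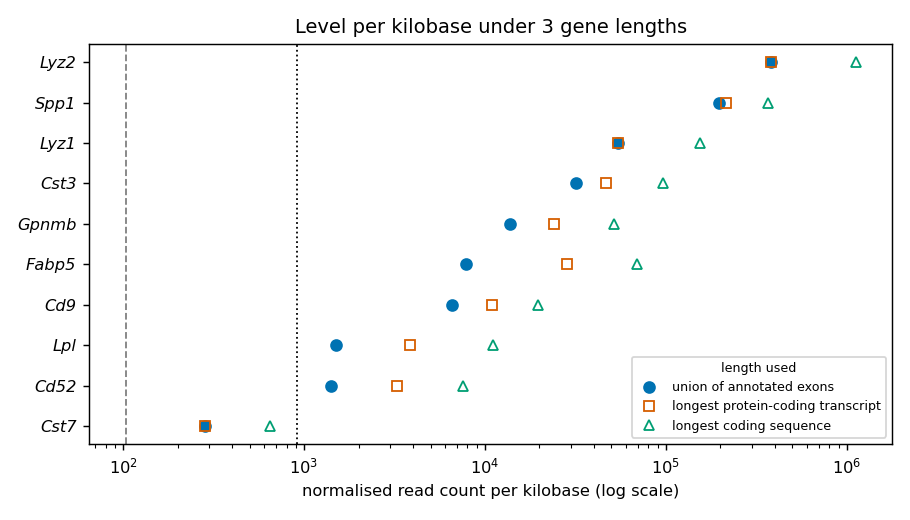
Normalised read count per kilobase (log scale) of each gene with 3 lengths: the union of annotated exons (filled circles), the longest protein-coding transcript (squares) and the longest coding sequence (triangles). The dashed line is the median of detected genes (103) and the dotted line the start of the highest 10% (908), both for the union of exons, and Cst7 is the gene whose circle lies left of the dotted line.

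The members were set beside other genes of the same state. A list of 22 further genes that rise in DAM had a median of 4918 per kilobase of exon, against 10787 for the 10 members and 103 for detected genes. By value 18 of the 22 were in the highest 10%, and 19 per kilobase. Apoe was highest at 472487 per kilobase, followed by Ctsd at 127816 and Fth1 at 72063, and Itgax, the integrin CD11c, was lowest at 161. Lyz2 and Spp1 each lay above 21 of the 22 genes and below Apoe alone. Per kilobase Cst7 lay below 21 and above Itgax alone, while by value Cst7 (280) was also below Itgax (772). Lpl and Cd52 each lay above 6 of the 22 per kilobase. By value they lay further apart, at 15800 and 1670, so these places depend on the scale.

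Genes of the homeostatic state were lower per kilobase. Their list of 12 had a median of 452, and 3 were in the highest 10% on either scale. The myeloid receptor-like gene Fcrls was at 3802 and the fractalkine receptor Cx3cr1 at 2344. The purinergic receptor P2ry12 was at 478, Tmem119 at 425, and the sugar transporter Slc2a5 was lowest at 3.53. Several genes of the induced list, among them Apoe, Fth1, Ctsb and Ctsd, are also expressed by astrocytes and many other cells. The lists differ in that respect, and no test between them was made.

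Because the culture was mixed, the cell types that could hold these transcripts were examined by markers. Of 12 microglia markers, 12 were in the highest 10% by value and 11 per kilobase, with levels from 241 per kilobase for Ptprc to 31364 for C1qa and a sum of values of 213615. Of 12 astrocyte markers, 6 were by value and 3 per kilobase, with Gfap highest at 4083 per kilobase and Gjb6 below detection, and the sum of values was 58294. Of 10 mesenchymal markers, 5 were by value and 3 per kilobase, from 18.8 per kilobase for Pdgfra to 8194 for Fn1 and 12067 for Acta2. Their sum of values was 161462, of which Fn1 alone held 95749. Of 10 oligodendrocyte lineage markers, 3 were on either scale, with a sum of 36565 and Sox10 lowest at 15.7 per kilobase. Lists overlapped, with Pdgfra on the mesenchymal and oligodendrocyte lists, and Cd68 and Tyrobp on the microglia and induced lists. The induced list also shared Ctsb, Ctsl and Ctsz with the protease list and Cstb with the cystatin family. It shared Cd63 with the tetraspanins and Plin2 with the fatty acid genes. Thy1 was on the mesenchymal and lipid-anchored lists, and Pmel on the melanocyte list and beside Gpnmb. Counts for lists that share genes are therefore not separate observations. The paper describes its VM glial cultures as mostly GFAP-positive astrocytes, with a minority of Iba1-positive microglia. The shares of cells in this library were not given in the sources used here, and sums of marker values do not measure them. Which of these cell types carried the transcripts of the 10 genes was not tested. In a bulk library, fewer cells of a type and less RNA per cell cannot be told apart.

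Markers of other cells known for single members had list medians from 0.534 to 12.7 per kilobase, although single markers lay above the 103 per kilobase of the median detected gene. Lymphocyte and natural killer cells, which can express Cd52 and Cst7, had 4 of 14 markers detected and a sum of values of 286, with Cd3d highest at 111 per kilobase and Cd79b, Nkg7, Gzmb and Prf1 among those listed at 0. Of 8 neutrophil markers, 4 (Elane, Camp, Ngp and Retnlg) were listed at 0. Per kilobase Cxcr2 was at 416, above 79.5% of detected genes, S100a8 at 186, S100a9 at 3.83 and Mpo at 3.21. The sum of values was 1411, of which Cxcr2 alone held 1269. For osteoblasts and osteoclasts, which make Spp1, Runx2 was at 112, above 52.0% of detected genes, and the other markers were below the median of detected genes, with Bglap and Calcr at 0 and a sum of values of 1334. Melanocyte markers, for Gpnmb, had a sum of values of 134, with Tyrp1 and Mlana at 0 and Pmel highest at 41.9 per kilobase. Fat and muscle markers, for Lpl, had a sum of 237, with Plin1, Cidec and Lep at 0 and Acta1 highest at 129 per kilobase. The endothelial sum was 2679, with Tek at 0 and Flt1 highest at 180 per kilobase, above 62.7% of detected genes. The neuronal sum was 5348, with Slc17a6 at 0 and Stmn2 highest at 679 per kilobase, above 86.6% of detected genes, and Stmn2 was the marker of these lists in the highest 10% by value.

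**Figure D4:**
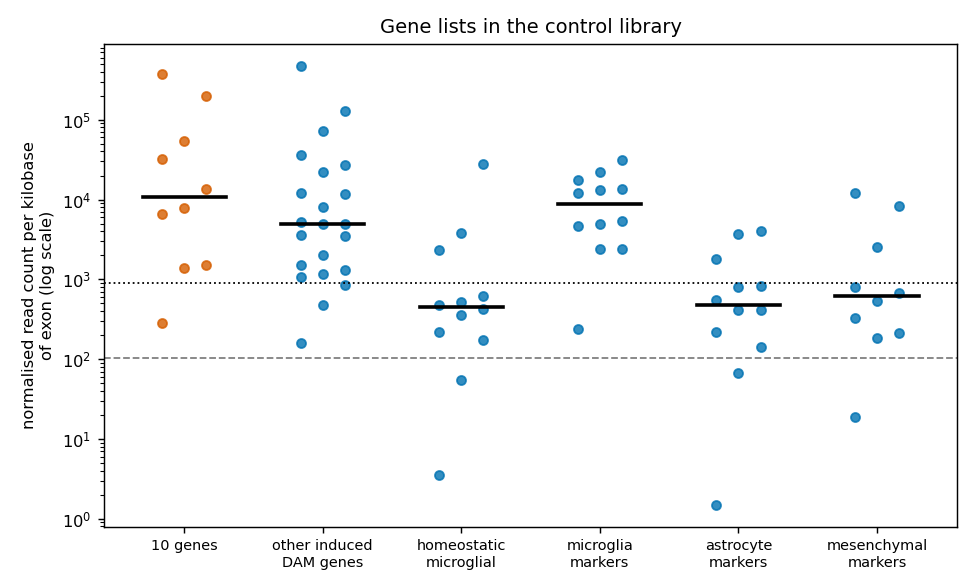
Normalised read count per kilobase of exon (log scale) for each gene (points) of the 10 examined genes, 2 lists of microglial state genes and 3 lists of cell type markers, with the median of each list as a bar. The medians are 10787 for the 10 genes, 4918 for other induced genes, 452 for homeostatic genes, 8809 for microglia, 484 for astrocyte and 612 for mesenchymal markers, and the dashed and dotted lines mark the median of detected genes and the start of their highest 10%.

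The nearest genes on either side were mostly lower per kilobase than the member. Of the nearest protein-coding genes with a row, Lyz1 and Lyz2 had each other on 1 side. Pkd2, 18399 bases from Spp1, was at 132 per kilobase, and Malsu1, 2865 bases from Gpnmb, at 116. Vwf, beside Cd9, was at 18.4, Pag1, beside Fabp5, at 144, and Ints10, beside Lpl, at 111. Apmap, 4135 bases from Cst7, was the neighbour outside the lysozyme pair with a higher level than its member, at 323 against 284 per kilobase.

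Shared sequence was examined for the other members as well. Of the 10 transcripts, 6 held 50-base windows that occur in another annotated gene, and Gpnmb, Cst3, Cst7 and Cd52 held none. Fabp5 had the largest share, 21.1%, of which most were shared with the processed pseudogene Gm6166. Fabp5 matched 5 processed pseudogenes at 90% identity or more over at least 100 bases, and none of them had a value to compare. For Cd9 the share was 15.5%, most of it with Gm26728, which overlaps Cd9 exons on the opposite strand by 218 bases. For Spp1 it was 9.05%, all with the overlapping Gm42793. For Lpl it was 4.11%, or 167 windows, of which 132 also occurred in Atg4c, and 299 genes held at least 1 of them.

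**Figure D5:**
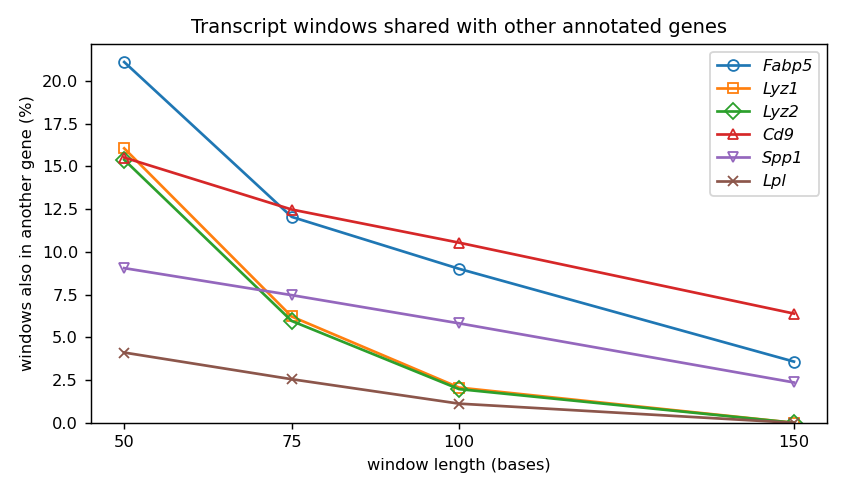
Share of transcript windows (per cent) that occur exactly in another annotated gene, against the window length in bases, for the 6 genes with any such window. Fabp5 falls from 21.1% at 50 bases to 3.58% at 150, the lysozymes and Lpl reach 0 at 150, and Cd9 and Spp1 keep 6.39% and 2.36%.

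Promoter sequence was given for 7 of the 10 genes (RefSeq, GRCm38.p6, from 250 bases before to 50 after the start), and short motifs were searched on both strands. The AP-1 motif TGACTCA occurred for Gpnmb alone, against 5.2% of all 32851 promoters. The PU.1 motif GAGGAAGT occurred for Spp1 alone, against 3.2%, and TATAAA for Spp1 alone, against 13.6%. The GC box GGGCGG occurred for Cst3 and Cd9 (35.7%), CATGTG for Cd9 (14.2%) and CACGTG for none (7.2%). No motif was common to more than 2 of the 7.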

How the data were processed

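Total RNA of VM-derived mixed glia (1 control library) was extracted with Trizol and sequenced after SMARTer mRNA library preparation. According to the study's methods, the authors trimmed bases of quality under 20, mapped reads to GRCm38/mm10 with STAR and counted reads on RefSeq exons with HTSeq-count. The submitters' processing notes name TopHat and edgeR instead, without versions. The deposited values were whole numbers, described by the authors as normalised read counts, and were treated as a score and not as raw counts, since the normalisation, strand setting and treatment of multi-mapped reads were not given in the sources used here. Another normalisation would change every level that is not a ratio within the library, and ratios between genes too if it corrects genes unequally. The values summed to 27569507, and 15648 of 23282 rows were at 10 or more (detected). A total of 22132 rows (95.1%) matched 1 gene of GENCODE M21 (GRCm38) by symbol. This annotation, which gave coordinates, exon unions and neighbours, is not the one the authors counted on. Exact windows of 50 bases and BLAST 2.17.0 matches (90% identity, 100 bases) were searched among GENCODE transcripts only, and a genome sequence was not used here. With 1 library no test was made, and functions were tested on simulated data. Lists and members were chosen with earlier results of these data known. Named were all members, and in each list the 3 highest and the lowest gene by value (in marker lists the highest and lowest), with the number at 0, and each member's nearest protein-coding neighbours. A few genes named by this rule are not reported here. The choice of any other named gene was made with its value known. Alternatives were other minima, denominators, gene lengths and window lengths. Python 3.11.15, pandas 2.3.3, numpy 2.4.6, Biopython 1.88 and matplotlib 3.10.9 were used.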

Additional observations from a re-analysis of the deposited data

How the results depend on the processing

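No paired analysis was possible because there was 1 library. An alternative value was taken as moved when it differed by more than 1.5 times, since no interval could be computed. The share of the sum held by the 10 genes was 4.01% without the ribosomal RNA precursor Rn45s. The number of the 10 in the highest 10% of detected genes was 8 with detection at 1 or at 100 and 9 per kilobase. That of the 22 other induced genes was 18 or 19 and that of the 12 homeostatic genes 3 or 4. The number of members whose transcript shares windows with another gene was 6 at windows of 50, 75 and 100 bases and 3 at 150 bases, since a longer window can only be shared less often. Among values of single genes, the level per kilobase was the one that moved for every member with the coding sequence as the length, which is shorter than the exons. With the longest protein-coding transcript, a length chosen after seeing the data, Gpnmb, Lpl, Fabp5, Cd9 and Cd52 moved, and with the longest transcript of any kind the same genes except Fabp5 did. The percentile of Cst7 among detected genes was 20.98 with detection at 100. Adding the lysozyme rows gave 567015, 2.06% of the sum. Fabp5 plus its pseudogenes gave no value because none of the 5 had a value to add. The lack of a replicate and of a known depth limits each level to this library.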
